A study of Mus musculus with 6 samples.

Results

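The genes described here form the pathway from the leukemia inhibitory factor (LIF) receptor to the transcription factor STAT3 in mouse embryonic stem cells. They are Lifr, Il6st, Jak1, Stat3, Socs3, Junb, Pim1 and Pim3, taken by gene symbol from the deposited table of translational efficiency, in which all 8 were present among 9093 genes. Cells lacking Mettl5, which encodes the N6-methyladenosine methyltransferase of 18S ribosomal RNA, were compared with wild-type (WT) cells by ribosome profiling, in work whose title concerns differentiation. The knockout (KO) was made with CRISPR/Cas9, and the labels do not say how many clones were used. Both genotypes came from 129Sv females crossed with C57BL/6 BVSC males. Both grew without serum in N2B27 medium with the MEK inhibitor PD0325901 at 1 µM, the GSK3 inhibitor CHIR99021 at 3 µM and LIF at 1000 U per ml, so the medium of every library held the ligand of the receptor, while phosphorylation of STAT3 was not measured. Ribosome-protected fragments (footprints) were sequenced in 2 WT and 2 KO libraries, and input mRNA in 1 library of each genotype. Whether replicate libraries came from different cultures is not stated, so a p-value here reflects library-to-library spread that may be technical.

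LIF binds the receptor chain encoded by Lifr, which pairs with gp130, the signalling chain shared by the interleukin-6 family and encoded by Il6st. Receptor-bound JAK kinases then phosphorylate STAT3, which enters the nucleus and switches on genes that keep mouse embryonic stem cells in the naive, self-renewing state. Socs3 is among the genes induced and its product shuts the receptor off again, while Junb encodes a subunit of the AP-1 transcription factor and Pim1 and Pim3 encode serine/threonine kinases whose activity is set mainly by how much protein is made.

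Values are read counts scaled to the library total (CPM). Footprint libraries held 2060010 to 8675267 reads and input libraries 17912908 and 15931259, and a gene of the pathway had 87 to 3476 footprint reads in a library. Footprints of Mettl5 were 123 and 127 CPM in WT and 9.71 and 11.2 CPM in KO. Of 10 listed markers of naive stem cells 9 were measured, of which 4 passed as higher in KO footprints, 1 as lower and 4 did not pass. Of all genes 18.3% passed as higher and 16% as lower. Pou5f1 (Oct4) had a log2 change of 0.27 (edgeR adjusted p = 1.34e-15) and Sall4 of -0.32 (edgeR adjusted p = 2.16e-08), while Nanog (0.34) and Zfp42 (0.33) lost their calls when each chromosome was scaled to its own median (0.045 and -0.060). The summed footprints of the 9 were 4426 and 4459 CPM in WT and 4862 and 4890 CPM in KO. Genes listed as markers of other cell types moved with genotype. Of 10 listed fibroblast genes 3 were measured (Col1a1, Col5a1 and Fbln2). They summed to 365 and 372 CPM in WT and 30.6 and 22.8 CPM in KO. Of 10 listed endoderm genes 5 were measured, the matrix genes Lama1, Lamb1, Col4a1, Col4a2 and Sparc. These summed to 3220 and 3222 CPM in WT and 1836 and 1893 CPM in KO. Sparc alone gave 1886 and 1869 CPM in WT and 1280 and 1340 CPM in KO. The listed endoderm genes Gata4, Gata6, Sox17, Sox7 and Pdgfra were not measured. The lowest footprint count in the table was 11 reads, so no measured marker could be at 0. Whether cells of other types contribute to the values below was not tested. In bulk samples fewer cells of a type and less RNA per cell cannot be told apart.

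The plot of CPM by library and the main fit show footprints of the pathway that did not all change the same way. Footprints of Lifr, Junb and Pim3 rose in KO cells and those of Il6st and Pim1 fell, while Jak1, Stat3 and Socs3 did not pass the test. Thus 5 of 8 genes passed (edgeR quasi-likelihood test, Benjamini-Hochberg adjustment over all genes, threshold 0.05), against a background of 34.4% of all genes, with 18.3% higher and 16% lower. The median log2 change was 0.06 over the 8 genes and -0.00027 over all genes. Groups of libraries did not overlap for 6 of the 8 genes, a property shared by 64.6% of all genes. Calls were fewer with DESeq2, which passed 2 of the 8 (Lifr and Junb), both as higher.

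**Figure D1:**
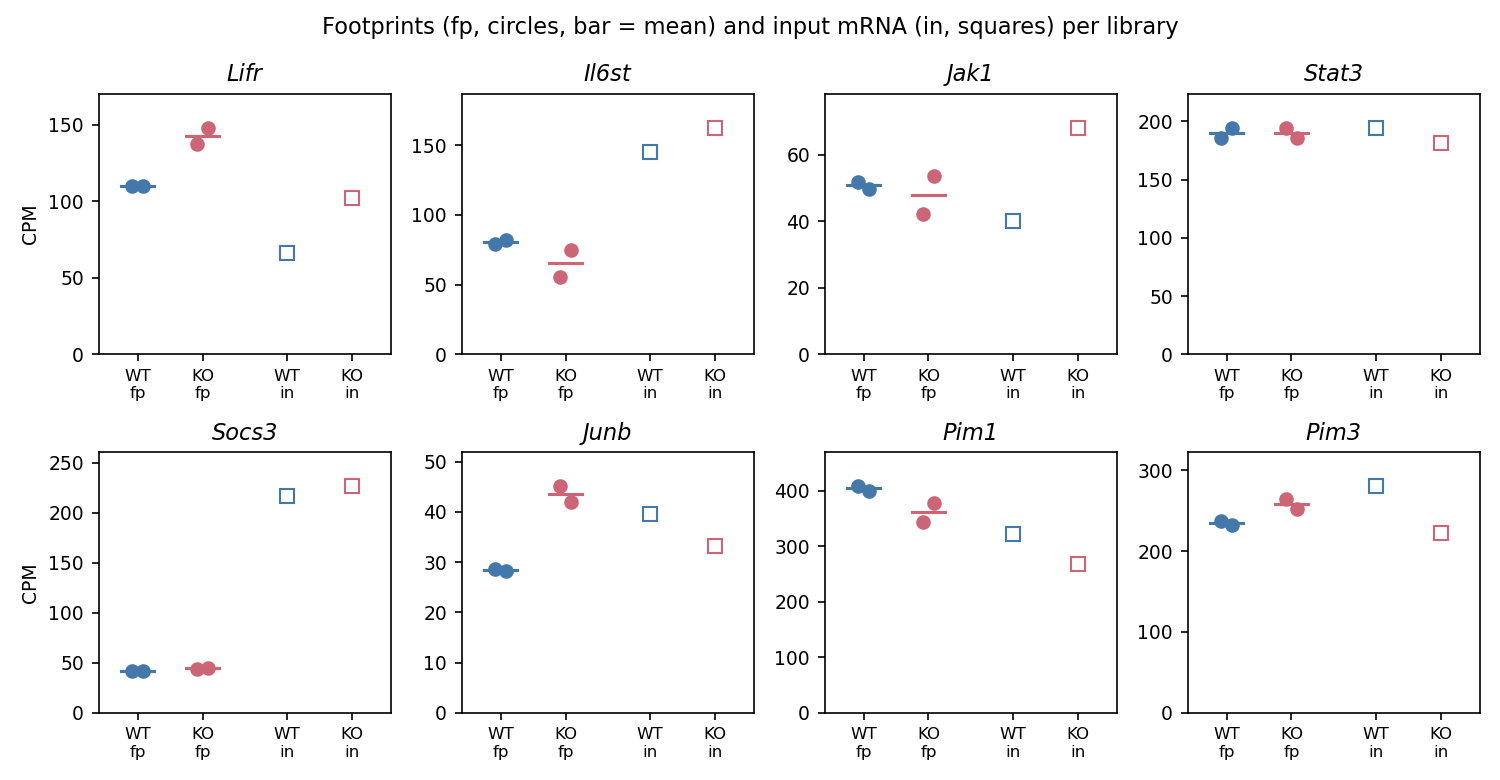
Each panel plots CPM (linear axis from 0) of 1 gene in the 4 footprint libraries (circles, with the mean of each genotype as a bar) and in the 2 input libraries (open squares), WT in blue and KO in red. Lifr and Junb footprints of both KO libraries lie above both WT libraries, whereas Jak1 footprints of the KO libraries lie on either side of WT while its KO input is higher.

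In the main footprint fit the receptor chain Lifr passed as higher and Il6st as lower, but the Il6st call was lost in several other settings given below. Input mRNA of both was higher in KO. Lifr (ENSMUSG00000054263.11, chromosome 15, 7090610 to 7197489 in mm10) had footprints of 109.8 and 110.1 CPM in WT and 137 and 148 CPM in KO. Both KO libraries lay above both WT libraries. The mean went from 109.9 ± 0.203 to 143 ± 7.73 CPM (SD, n = 2 per genotype), a rise of 1.33-fold or 0.41 ± 0.08 (SE) on the log2 scale (edgeR adjusted p = 1.1e-06). The Lifr call held in all 11 settings tried, with adjusted p-values of 1e-06 to 0.00994. Lifr mRNA was also higher in the KO input library, at 102 against 66.5 CPM, a log2 ratio of 0.61 whose 95% counting interval ran from 0.51 to 0.72.

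Il6st (ENSMUSG00000021756.12, chromosome 13, 112464070 to 112506860) had footprints of 79.4 and 82.1 CPM in WT and 55.8 and 74.9 CPM in KO. Both KO libraries lay below WT but far from each other, the second KO library being 1.34 times the first, where the WT libraries differed by 1.03 times. The fitted change was -0.24 ± 0.10 (edgeR adjusted p = 0.0432), close to the threshold, and ran from -0.09 without the first KO library to -0.52 without the second. This call was lost without the first KO library (adjusted p = 0.61), without the first WT library (0.0556), without the second (0.246) and with DESeq2 (0.301). Il6st mRNA was 145 CPM in the WT input and 163 CPM in the KO input, a log2 ratio of 0.16 (0.09 to 0.24), so footprints and mRNA differed in sign.

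Within a library the number of Lifr footprints per Il6st footprint was 1.38 and 1.34 in WT and 2.46 and 1.98 in KO, not corrected for gene length. The ratio was therefore 1.63 times higher in KO than in WT footprints, and 1.37 times higher in the input (0.458 and 0.629). The 2 KO libraries both lay above WT. With 2 against 2 libraries an exact permutation test cannot give a p below 0.333, and none is reported for the ratio.

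Neither of the signal carriers inside the cell passed the footprint test. Jak1 (ENSMUSG00000028530.14, chromosome 4, 101151974 to 101265282), the kinase that gp130 receptors depend on most, had footprints of 51.9 and 49.7 CPM in WT and 42.2 and 53.6 CPM in KO. The KO libraries bracketed WT, and the change was -0.017 with a 95% interval of -0.26 to 0.22 (edgeR adjusted p = 0.938). Its mRNA, by contrast, was 40.1 CPM in the WT input and 68.2 CPM in the KO input, a log2 ratio of 0.75 (0.62 to 0.88) that stood at percentile 91.4 of all genes.

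Stat3 (ENSMUSG00000004040.16, chromosome 11, 100886806 to 100939594) had footprints of 185 and 194 CPM in WT and 195 and 186 CPM in KO. The groups overlapped, and the interval of the change ran from -0.11 to 0.13 (edgeR adjusted p = 0.916). Stat3 mRNA was 194 CPM in the WT input and 181 CPM in the KO input, a log2 ratio of -0.10 (-0.17 to -0.03).

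The targets of STAT3 did not all move one way. In footprints Junb and Pim3 passed as higher, Pim1 as lower and Socs3 did not pass, although differences between the 4 were not tested. Upstream sequence is shown for all 4 because they are known targets of the same factor, each as the 250 bases before an annotated start (RefSeq, GRCm38.p6), 5′ to 3′ on the gene's strand. Capitals mark the STAT-type motif TTCNNNGAA, searched on both strands.
Socs3, chr11:117969367-117969616, minus strand: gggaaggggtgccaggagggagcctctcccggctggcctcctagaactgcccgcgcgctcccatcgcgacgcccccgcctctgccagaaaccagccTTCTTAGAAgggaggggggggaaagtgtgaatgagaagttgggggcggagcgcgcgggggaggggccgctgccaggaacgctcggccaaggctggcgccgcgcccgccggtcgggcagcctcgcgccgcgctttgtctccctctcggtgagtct
Junb, chr8:84978749-84978998, minus strand: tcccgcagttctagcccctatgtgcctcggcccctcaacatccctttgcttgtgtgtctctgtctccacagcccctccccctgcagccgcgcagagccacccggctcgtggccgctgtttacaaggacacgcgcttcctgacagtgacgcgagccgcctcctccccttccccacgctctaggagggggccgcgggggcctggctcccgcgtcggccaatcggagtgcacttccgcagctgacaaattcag
Pim1, chr17:29490535-29490784, plus strand: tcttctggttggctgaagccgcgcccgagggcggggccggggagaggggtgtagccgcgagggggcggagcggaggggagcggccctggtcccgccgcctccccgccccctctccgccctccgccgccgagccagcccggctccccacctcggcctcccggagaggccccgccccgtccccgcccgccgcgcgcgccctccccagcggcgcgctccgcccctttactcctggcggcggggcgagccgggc
Pim3, chr15:88861944-88862193, plus strand: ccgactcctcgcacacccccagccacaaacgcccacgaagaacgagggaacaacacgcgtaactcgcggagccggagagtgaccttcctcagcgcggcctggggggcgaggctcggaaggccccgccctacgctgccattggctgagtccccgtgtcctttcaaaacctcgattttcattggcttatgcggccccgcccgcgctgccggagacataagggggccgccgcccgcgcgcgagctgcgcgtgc
Among the windows of the 8 genes only that of Socs3 held TTCNNNGAA, at positions -154 to -146 from the start, and 7.02% of 32851 mouse promoter windows of the same length held it. The Socs3 window begins at an internal start of the gene as annotated and so lies within its span. The GC box GGGCGG, counted on both strands, occurred 7 times in the Pim1 window shown, 3 times before Pim3, 1 time before Socs3 and not before Junb, and 32.7% of all windows held it. Pim1 has another annotated start (window chr17:29492835-29493084), which held no GC box. The window shown is the one that ends where the gene begins in the RefSeq coordinates. TATAAA was in none of these 4 windows and in 12.4% of all. Matches describe the letters in these windows in the reference sequence, and STAT3 binding was not measured.

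Junb (ENSMUSG00000052837.6, chromosome 8, 84976909 to 84978748) showed the largest footprint change of the 8 genes. Its footprints were 28.7 and 28.1 CPM in WT and 45.1 and 42.0 CPM in KO. The KO libraries stood clear of the WT libraries, with a rise of 1.55-fold (log2 change of 0.63 ± 0.15, edgeR adjusted p = 0.0001). Junb mRNA was lower in the KO input, at 33.3 against 39.6 CPM, a log2 ratio of -0.25 (-0.40 to -0.09), so the footprint rise had no counterpart in mRNA. Chromosome 8 moved as a whole, as given below, and with each chromosome scaled to its own median the Junb footprint change was 0.24 and lost its call (edgeR adjusted p = 0.202).

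Pim3 (ENSMUSG00000035828.10, chromosome 15, 88862194 to 88865726) had footprints of 238 and 232 CPM in WT and 265 and 253 CPM in KO. The KO libraries were slightly higher, and the change of 0.16 ± 0.06 passed (edgeR adjusted p = 0.0168). Its mRNA was 281 CPM in the WT input and 222 CPM in the KO input, a log2 ratio of -0.34 (-0.40 to -0.27). The Pim3 footprint call was lost with DESeq2 (adjusted p = 0.212) and in edgeR without the first KO library (0.118) or the second WT library (0.154).

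Pim1 (ENSMUSG00000024014.7, chromosome 17, 29490785 to 29496111) had footprints of 409 and 401 CPM in WT and 344 and 379 CPM in KO. Here the KO libraries lay below WT, with a fall of -0.13 ± 0.05 (edgeR adjusted p = 0.0258) that became -0.067 on leaving out the first KO library and -0.21 on leaving out the second. Pim1 mRNA was 322 CPM in the WT input and 269 CPM in the KO input, a log2 ratio of -0.26 (-0.32 to -0.20). Of the footprint falls in this pathway, that of Pim1 had mRNA on the same side and that of Il6st did not. The Pim1 call was lost without the first WT library (adjusted p = 0.1), without the second (0.0702), without the first KO library (0.393) and with DESeq2 (0.235). The number of Pim3 footprints per Pim1 footprint was 0.582 and 0.579 in WT and 0.77 and 0.667 in KO, not corrected for length, while the same ratio in the input was 0.871 and 0.827.

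Socs3 (ENSMUSG00000053113.3, chromosome 11, 117966079 to 117970336), the feedback inhibitor, had footprints of 42.3 and 42.0 CPM in WT and 44.2 and 44.9 CPM in KO. The KO libraries were a little above WT, but the change of 0.11 did not pass (95% interval of -0.15 to 0.37, edgeR adjusted p = 0.566). Socs3 mRNA was measured at 217 CPM in the WT input and 227 CPM in the KO input (log2 ratio of 0.07, 0.00054 to 0.13). Its footprints were thus few beside its mRNA in both genotypes.

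Input intervals lay above 0 for 4 of the genes (Lifr, Il6st, Jak1 and Socs3) and below 0 for the other 4, but they cover counting error only, and intervals of 41.5% of all genes lay above 0 and 34.7% below. With each library centred on its median, the Socs3 ratio was 0.0048 with an interval of -0.060 to 0.070, the other 7 genes stayed on their side of 0, and the shares of all genes were 37.1% and 40.1%. Relative to the median of their chromosomes, the input ratios of Stat3 (0.13) and Il6st (-0.021) changed sign. These are single libraries with no replicate check.

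Translational efficiency (TE) is the ratio of footprint CPM to input CPM. How reads were counted is not given, so gene length may not cancel in this ratio when genes are compared. In the authors' deposited table the mean WT ratio of Socs3 was 0.194, at percentile 3.58 of all genes, while the median gene had 0.89 and the 10th to 90th percentile range was 0.314 to 3.01. The mean KO ratio of Socs3 was 0.196 in the authors' deposited table. Lifr stood highest of the 8 in WT, with 1.65 in both WT libraries and 1.34 and 1.45 in KO (percentile 75.9 in WT). Il6st ranked next to last, at 0.547 and 0.565 in WT and 0.343 and 0.46 in KO. In the order of WT means Lifr was followed by Jak1 and Pim1, whose library values overlapped (1.239 to 1.295 and 1.243 to 1.268), then Stat3 (0.953 and 0.9995), Pim3 (0.848 and 0.827), Junb (0.723 and 0.71), Il6st and Socs3. Footprint ratios of a genotype share 1 input library, so their spread holds none of the input's.

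**Figure D2:**
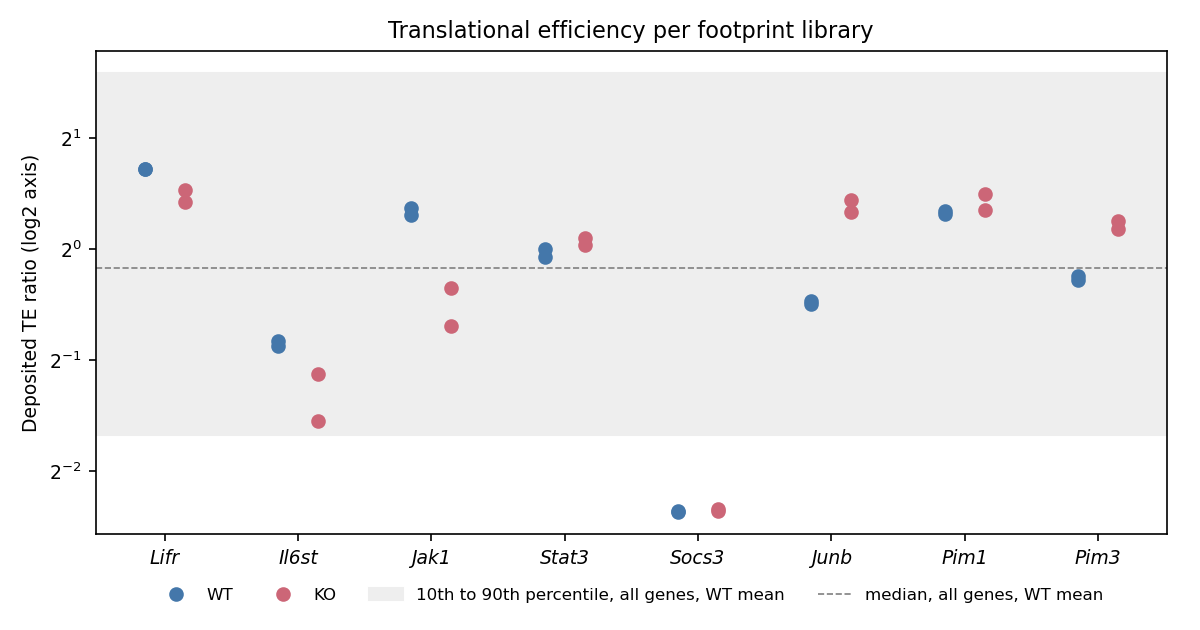
Deposited TE ratios of the 8 genes per footprint library on a log2 axis, WT in blue and KO in red, with the range of all genes in WT (10th to 90th percentile of WT means) shaded and their median dashed. Socs3 lies below the shaded range in all 4 libraries, and Junb and Pim3 pass from below the WT median to above it while Jak1 passes the other way.

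On the log2(CPM + 1) scale, limma then tested whether the footprint change of a gene exceeded its input change. Junb and Pim3 rose, Jak1 fell, and the other 5 did not pass. Thus 3 of 8 genes passed, while limma called 17.7% of all genes, 4.88% higher and 12.8% lower. That split of all genes was 444 higher and 1165 lower, and 756 and 883 with each library centred on its median, under which the same 2 genes of the pathway passed as higher and the same gene as lower. The median TE change was 0.06 over the 8 genes and -0.03 over all genes. Among the 9 measured naive markers 3 passed as higher in TE (Utf1 at 0.76, Pou5f1 at 0.48 and Esrrb at 0.33) and none as lower. These marker calls were lost under the added input spread described below.

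Junb had the largest TE change, with ratios of 0.723 and 0.71 in the WT libraries and 1.36 and 1.26 in the KO libraries. It rose 1.8-fold (log2 change of 0.85 ± 0.24, limma adjusted p = 0.017), at percentile 99.5 of all genes. The call was lost without the first WT library (adjusted p = 0.0557) and without the second (0.0599), whereas chromosome scaling left it past the threshold. Both footprint and TE calls as higher, which Junb shared with Pim3, occurred in 2.41% of all genes.

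Pim3 had ratios of 0.848 and 0.827 in WT and 1.19 and 1.14 in KO, and its TE rose 1.39-fold (0.47 ± 0.09, limma adjusted p = 0.00089). Jak1 had ratios of 1.295 and 1.239 in WT and 0.62 and 0.786 in KO. Its TE fell by 0.84 ± 0.22 on the log2 scale (limma adjusted p = 0.00919), with footprints that did not pass and mRNA that was higher in the KO input. All 3 calls rest on the assumption that an input library varies as little as a footprint library. With a spread of 0.2 (log2) added for each input library none of the 3 passed (limma adjusted p = 0.508 for Junb, 0.775 for Pim3 and 0.499 for Jak1, with 2 of 8 genes at an unadjusted p under 0.05), and the authors' deposited p-values adjusted over all genes gave 0.0641, 0.0692 and 0.103.

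Il6st had a TE change of -0.48 (95% interval of -0.86 to -0.10 before adjustment) that missed the threshold (limma adjusted p = 0.077). The change was -0.32 with chromosome scaling (limma adjusted p = 0.277) and -0.39 with each library centred on its median (0.16). Without the first KO library the change was -0.27 (adjusted p = 0.149). It passed without the second KO library (-0.69, adjusted p = 2.04e-05) and with edgeR on input reads recovered from CPM (-0.38, adjusted p = 0.00777), the latter calling 3189 genes. Lifr had -0.24 (-0.53 to 0.04, limma adjusted p = 0.261), its footprints and mRNA being on the same side. Stat3 (0.11, -0.11 to 0.33), Pim1 (0.10, -0.08 to 0.28) and Socs3 (0.01, -0.32 to 0.35) had intervals that span 0. The plot of all 3 changes sets these intervals side by side.

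**Figure D3:**
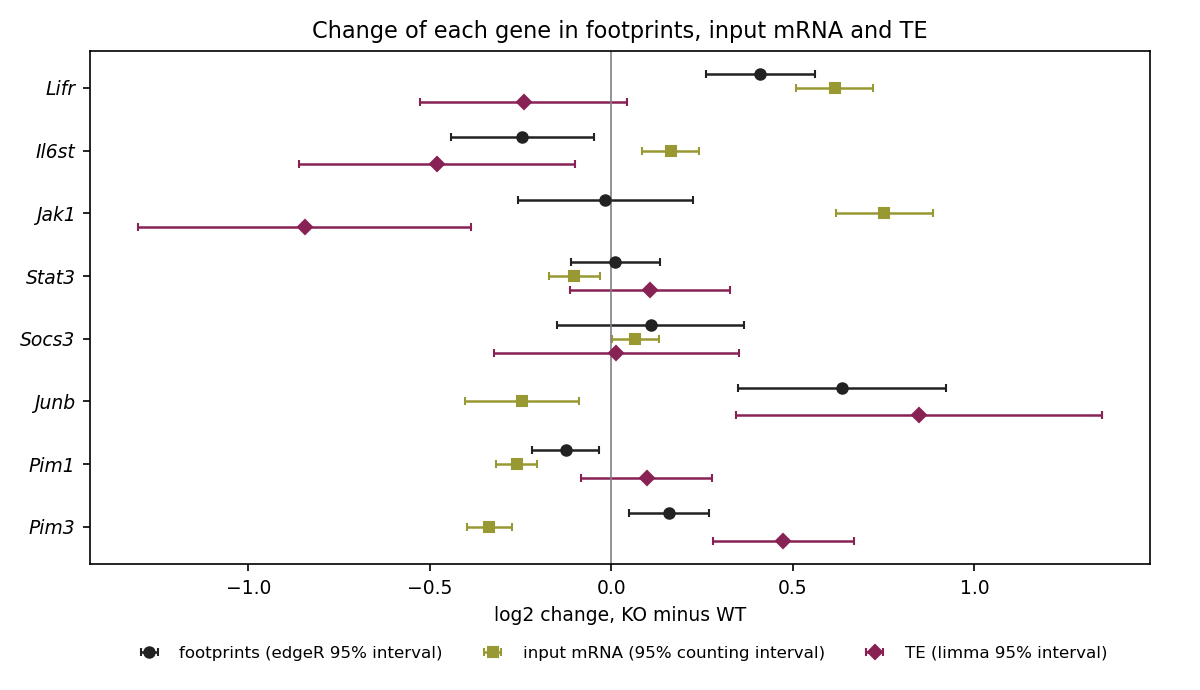
Log2 change (KO minus WT) of each gene in footprints (circles, edgeR 95% interval), input mRNA (squares, 95% counting interval of single libraries) and TE (diamonds, limma 95% interval before adjustment). Junb and Pim3 have footprint and TE changes above 0 with input below 0, and Jak1 has input above 0, TE below 0 and footprints at 0.

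Of the 5 genes past the footprint test, 3 (Il6st, Junb and Pim3) had an input ratio of the opposite sign and 2 (Lifr and Pim1) of the same sign, while 22% of the 3126 genes called in footprints had the opposite sign. Leaving out libraries or using DESeq2 ended the calls of Il6st, Pim1 and Pim3, as given above, so these 5 are a description. The plot of footprint against input change places Junb at percentile 95.6 in footprints and 24.9 in input, and Jak1 at percentile 47.8 in footprints and 91.4 in input. Lifr stood at percentiles 88 and 86.4.

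**Figure D4:**
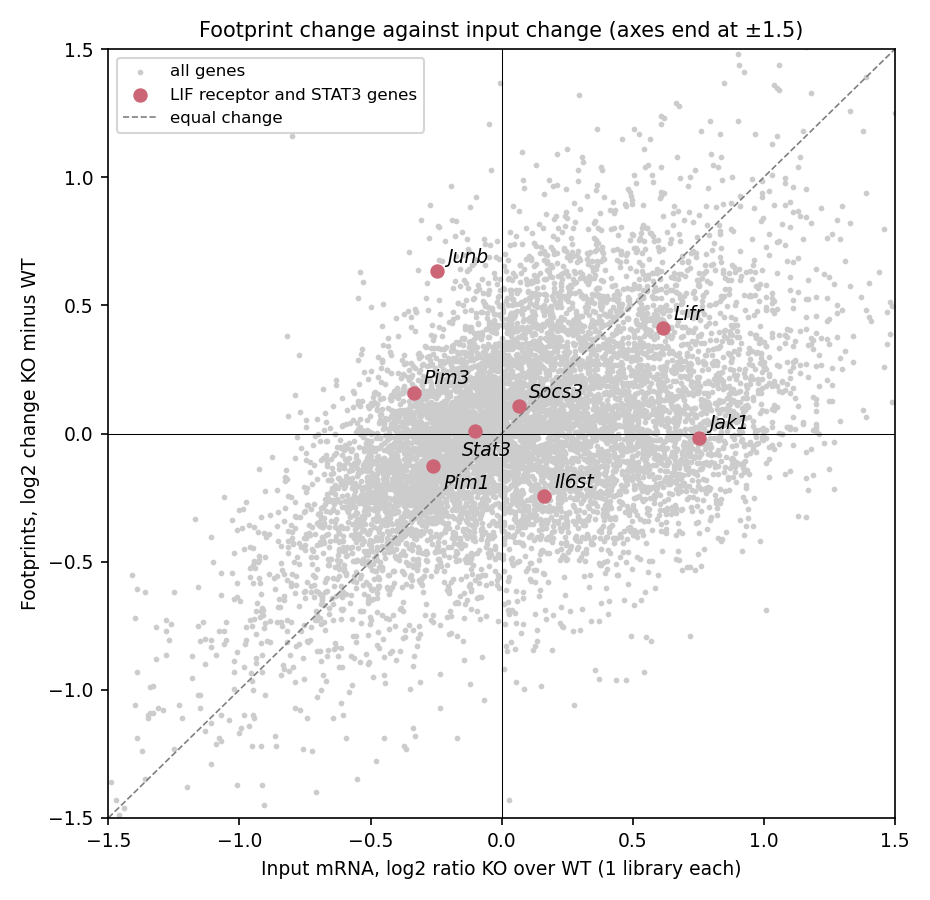
Footprint change (vertical) against input change (horizontal), both as log2 KO over WT, for all genes in grey and the 8 pathway genes in red. The dashed line marks equal change, and 56 genes fall outside axes that end at 1.5 in each direction. Junb and Pim3 lie above the line and Jak1 and Il6st below it.

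Some chromosomes shifted as a whole in footprints between the genotypes, and 3 of the pathway genes lie on such chromosomes. Among the other 521 genes of chromosome 8, where Junb lies, the median footprint change was 0.39 and the median input ratio 0.32, and 64.7% were called higher in footprints. Relative to these medians Junb stood at 0.24 in footprints, -0.56 in input and 0.82 in TE. Stat3 and Socs3 lie on chromosome 11, where the other 771 genes had a median of -0.19 in footprints and -0.24 in input and 35.7% were called lower. Scaled to its chromosome, Stat3 footprints passed as higher (0.20, edgeR adjusted p = 0.0113), and Socs3 footprints did not (0.29, adjusted p = 0.0799).

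The other 5 genes lie on chromosomes 4, 13, 15 and 17, whose median footprint changes lay between -0.0039 and 0.05. Relative to the rest of chromosome 15, Lifr stood at 0.41 and Pim3 at 0.16. Il6st stood at -0.29 relative to chromosome 13, and its input ratio of 0.16 was close to that chromosome's median of 0.18. The median TE change of the other genes of chromosome 13 was -0.16, so this chromosome shifted in input and TE. What part the chromosome shifts have in the values of Junb, Stat3, Socs3 and Il6st was not tested beyond this scaling.

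**Figure D5:**
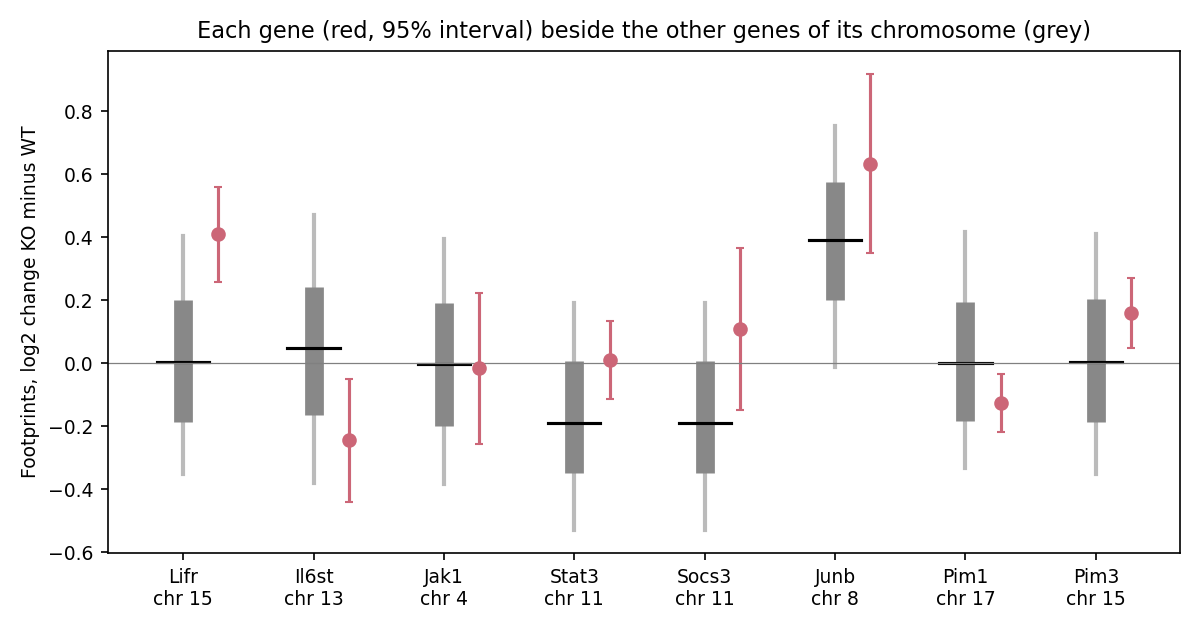
Footprint change (log2, KO minus WT) of each pathway gene (red, edgeR 95% interval) beside the other genes of its chromosome (median as a black line, quartiles as a thick bar, 10th to 90th percentile as a thin bar). Junb lies above 0 on a chromosome whose median is 0.39, and Stat3 and Socs3 lie near 0 on a chromosome whose median is -0.19.

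Genes around the pathway were read from lists chosen with earlier results of these data known. Counts of footprint calls in these lists stand beside 18.3% of all genes called higher and 16% called lower. Among ligands and other receptor chains of the interleukin-6 family, 1 of 10 was measured, the ligand gene Osm, with footprints of 8.23 and 7.03 CPM in WT and 6.31 and 10.9 CPM in KO. These overlap, and Lif itself was not analysed here. Of the other JAK kinases and STAT factors 6 of 9 were measured and 2 passed as higher in footprints, with a list median of -0.02. Jak3, the kinase of common gamma chain receptors, had 128 and 142 CPM in WT and 170 and 199 CPM in KO (0.47 ± 0.07, edgeR adjusted p = 5.83e-11), but it lies on chromosome 8 and stood at 0.08 with chromosome scaling (edgeR adjusted p = 0.386). Its TE rose as well (0.63 ± 0.13, limma adjusted p = 0.00169). Stat2, a factor of interferon signalling, passed at 0.27 ± 0.10 (edgeR adjusted p = 0.0217), and not without the second WT library (adjusted p = 0.0851), without the second KO library (a change of 0.15, adjusted p = 0.494) or with DESeq2 (0.252).

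Of the listed SOCS and PIAS genes and phosphatases that act against the pathway, 9 of 14 were measured. In footprints 3 passed as lower, with a list median of -0.16, while 16% of all genes were called lower. Ptpn1, the phosphatase PTP1B, had 56.2 and 50.0 CPM in WT and 31.1 and 31.7 CPM in KO, a fall of -0.71 ± 0.14 (edgeR adjusted p = 2.47e-06). Its mRNA was 81.2 CPM in the WT input and 58.9 CPM in the KO input. Pias2 and Pias4, which encode SUMO ligases, fell by 0.43 and 0.21 on the log2 scale, the Pias4 call being lost with DESeq2 (adjusted p = 0.176) and in edgeR without either second library (0.0668 for WT and 0.103 for KO). In TE Pias2 fell by 0.98 and Ptpn2, the phosphatase that acts on JAK1 and STAT3, by 0.83 (limma adjusted p = 1.29e-05 and 0.00138), both with mRNA that was higher in the KO input (0.55 and 0.65). With chromosome scaling the TE changes of Pias2 and Ptpn2 were -0.75 and -0.60.

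Adaptors and kinases that link gp130 to the ERK and PI3K branches were measured for 10 of 12. In footprints 1 passed as higher and 2 as lower, with a list median of -0.13. The shares of all genes were 18.3% higher and 16% lower. Gab1, a docking protein, had 487 and 465 CPM in WT and 607 and 616 CPM in KO (0.39 ± 0.04, edgeR adjusted p = 1.84e-19). It lies on chromosome 8, and its change was 0.00015 with chromosome scaling (edgeR adjusted p = 0.998). Its mRNA was higher in the KO input (0.80) and its TE fell by 0.44 (limma adjusted p = 0.000133). The adaptor genes Grb2 and Shc1 passed at -0.38 and -0.27 (edgeR adjusted p = 0.0127 and 0.0168). The Grb2 call was lost without the second WT library, either KO library, DESeq2 and chromosome scaling (adjusted p of 0.0502 to 0.264), and the Shc1 call without the second WT library (0.155), the first KO library (0.248) and with DESeq2 (0.208), its change being -0.17 when the first KO library was left out and -0.44 when the second was.

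Other genes known to respond to LIF or STAT3 were measured for 10 of 14. In footprints 5 passed as lower and 1 as higher, with a list median of -0.13. Over all genes 16% passed as lower and 18.3% as higher. Icam1, a cell adhesion molecule, had 710.1 and 707 CPM in WT and 416 and 448 CPM in KO, a fall of -0.68 ± 0.04 (edgeR adjusted p = 4.57e-57), with input at 352 and 186 CPM. Pim2, the remaining Pim kinase gene, had 16.2 and 12.5 CPM in WT and 9.22 and 7.78 CPM in KO (-0.69 ± 0.25, edgeR adjusted p = 0.0193), a call lost without the first WT library (adjusted p = 0.0884), without the second KO library (0.307) and with DESeq2 (0.219). Pim3 was called higher, and Pim1 and Pim2 lower. Mcl1, which protects cells from apoptosis, fell by 0.33, while Klf4, a naive pluripotency factor induced by STAT3, had 83.1 and 82.8 CPM in WT and 123 and 107 CPM in KO and rose by 0.47 ± 0.09 (edgeR adjusted p = 8.15e-07). Tfcp2l1, another naive factor downstream of STAT3, passed as lower in footprints (-0.18, edgeR adjusted p = 0.000108). Its TE fell as well (-0.64 ± 0.07, limma adjusted p = 3.27e-07), and the TE change was -0.43 with chromosome scaling. Tfcp2l1 mRNA was 1004 CPM in the WT input and 1359 CPM in the KO input.

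AP-1 genes other than Junb were measured for 2 of 8. Jund had footprints of 120.0 and 137 CPM in WT and 261 and 251 CPM in KO, a rise of 0.98 ± 0.06 (edgeR adjusted p = 6.99e-52), and its TE rose by 0.70 ± 0.12 (limma adjusted p = 0.000203). Like Junb it lies on chromosome 8, but its footprint change kept its call with chromosome scaling (0.59, edgeR adjusted p = 8.86e-14). Jun had 0.29 ± 0.21 (edgeR adjusted p = 0.294). With the added input spread, the TE calls of Jak3, Pias2, Ptpn2, Gab1, Tfcp2l1 and Jund were lost as well (limma adjusted p of 0.36 to 0.796).

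Likeness of pattern was measured over the 6 libraries as the root mean square distance of log2(CPM + 1) values, after each gene's mean over footprint libraries and over input libraries was subtracted. The gene nearest to Stat3 was Gpn1 (0.0076), to Pim1 Hk1 (0.0097), to Socs3 Ttc1 (0.012), to Pim3 Cnot3 (0.015), to Jak1 Tceanc (0.017), to Lifr Trappc11 (0.02), to Il6st Fam120a (0.026) and to Junb the histone gene Hist1h3d (0.039), which shares sequence with its copies. Hist1h3d had a footprint change of 0.59 and an input ratio of -0.18. With 9093 genes and 6 libraries these distances are a description only.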

How the data were processed

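The sources used here hold 1 table of 9093 genes. Footprint read counts were deposited by the authors, and the file headers call them counts without mention of normalization. Footprints and input were also deposited as CPM, and all input values (100%, tolerance 0.01) were whole multiples of the lowest value in their library, from which input reads and totals were taken. The authors also deposited TE, the ratio of both CPM values, with its log2 fold and an unadjusted p-value. Another 2 per-sample columns were not used because no label names their samples. Bowtie and mm10 are named per the submitters' processing notes. How reads were counted and genes filtered is not given in the sources used here.

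Samples were grouped by title. For footprints edgeR 4.0.16 was used (quasi-likelihood test, TMM, 2 against 2 libraries) and for TE limma 3.58.1 (trend, log2(CPM + 1), 6 libraries), with Benjamini-Hochberg adjustment over all genes. Low-value filters removed 0 genes, and each fit left 2 residual degrees of freedom, in TE all from footprints. The 1 CPM added understates changes of low genes. Input has 1 library per genotype and no test. Intervals of input cover counting error only. DESeq2 1.42.0, other scalings and left-out libraries were alternatives. Chromosomes and gene positions came from RefSeq (GRCm38.p6), matched by symbol for 9057 genes.

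The members and lists were chosen with earlier results of these data known. Named were all 8 members, up to 4 genes per other list and test with the largest change among those past the threshold, and the gene nearest in pattern to each member. Jun and Osm, which did not pass, were named after their values were seen. Sparc, outside that rule, was named as well. Coding lengths were not used here, so levels of different genes were not compared per length. The ranks by TE and the ratios between genes given above are not corrected for length.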

Additional observations from a re-analysis of the deposited data

How the results depend on the processing

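Lifr passed the footprint test in all 11 settings, Junb in 10, Pim3 in 8, Pim1 in 7, Il6st in 6 and Stat3 in 1. In TE, Jak1 and Pim3 passed in 12 of 14 settings, Junb in 10 and Il6st in 3. Both sets of settings include the main fit. The footprint setting without a low-count filter equals the main fit, because that filter removed 0 genes. With DESeq2 the count of footprint calls was 1408 genes and 2 of the 8 members (main 3126 and 5). Without single libraries these counts ran from 1935 to 2733 and from 2 to 5, and footprint changes of Jak1 and Stat3 turned sign, with ranges of -0.24 to 0.11 and -0.012 to 0.058. In TE the main counts were 1609 genes and 3 members, and 1102 to 2400 and 2 to 4 without single libraries. An added input spread left 4 genes and 0 members in limma (742 and 2 at an unadjusted p under 0.05). The authors' p-values after adjustment left 143 genes and 0 members (3084 and 4 unadjusted), and edgeR on recovered reads called 3189 genes and 4 members. With chromosome scaling the TE change of Socs3 was -0.019 and the footprint change of Zfp42 (a naive marker) was -0.060, each of opposite sign to the main value, and the TE split was 563 higher and 919 lower. The cause was not tested. Same-numbered footprint libraries did not deviate together (r = -0.033 over genes). With 2 pairs this cannot decide whether the numbers mark a pairing. With the replicate number as a block, 2952 genes and 4 members passed in footprints, Il6st missing at 0.0585 (edgeR), and 1641 genes and 4 members in TE, Il6st passing at 0.0249 (limma). Levels per coding length were not run. In footprints the intervals were widest for Junb, Socs3 and Jak1 (SE of 0.15, 0.13 and 0.12), which had few reads (87 in 1 library for Jak1).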
